A study of Mus musculus with 2 samples.

Results

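Mir202 and Mir383 are 2 microRNA (miRNA) genes that are best known from the gonads, and their levels were read here in the adrenal gland. The members were taken by their gene names, and they are 2 of the 2202 miRNA genes in the deposited count tables. Libraries of small RNA (labelled with a size below 30) had been made from total RNA of adrenal glands of female B6CASTF1/J mice aged 18 to 20 months. These animals are first-generation hybrids of a C57BL/6J and a CAST/EiJ parent, and the labels name no treatment, transgene or mutation. There was 1 group of 2 biological replicates, which the labels number as separate females but enter under one shared donor record, so the spread given here is that of these samples and may be technical in part. No other tissue, sex, age or strain was analysed here, so a level in the adrenal gland was not compared with a level in an ovary or a testis.

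A miRNA is cut from a hairpin transcript into a short single strand, which guides Argonaute proteins to messenger RNAs that pair with its seed, the bases near its 5′ end. The adrenal cortex and the gonads arise from a common primordium, and both use the nuclear receptor Nr5a1 (steroidogenic factor) and make steroid hormones. Mir202 is known from the supporting and steroid-producing cells of ovary and testis, where it has been linked to Sox9 in Sertoli cells, the supporting cells of the testis. Mir383 lies in Sgcz, the gene of zeta-sarcoglycan, and has been described in granulosa cells of the ovary as induced with its host by Nr5a1 and as promoting oestradiol release. These statements are background, and neither Nr5a1 nor any steroidogenic enzyme was measured in these small RNA tables.

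The sequence of Mir202 is shown first because its 3′ arm carries a seed that is close to that of the abundant let-7 family. Of the 2 members, 1 matched an entry in the RefSeq table (build GRCm38.p6), namely Mir202, and Mir383 did not. The Mir202 hairpin of 72 bases lies at chr7:139957689-139957760 on the minus strand, the position that GENCODE release M21 also gives. It is printed 5′ to 3′ with its mature arms in capitals, bases 9 to 29 for the 5′ arm and 45 to 66 for the 3′ arm.
Mir202 hairpin: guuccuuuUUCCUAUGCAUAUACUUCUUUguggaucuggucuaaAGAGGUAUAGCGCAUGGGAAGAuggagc
Below are the mature arms and the let-7 sequences that they are compared with, each with its seed, bases 2 to 8, in capitals.
mmu-miR-202-5p: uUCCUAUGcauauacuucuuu
mmu-miR-202-3p: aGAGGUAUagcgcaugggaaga
mmu-let-7j: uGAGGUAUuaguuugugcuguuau
mmu-let-7i-5p: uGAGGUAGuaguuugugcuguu
mmu-let-7d-5p: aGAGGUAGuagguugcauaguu
mmu-let-7b-5p: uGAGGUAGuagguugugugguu
Among 1738 mature sequences in the table, 15 had GAGGUA at bases 2 to 7, namely miR-202-3p and 14 other entries, which were let-7 sequences, miR-98 and miR-1961. Only let-7j, encoded by Mir7j, also shared base 8 with miR-202-3p. The seed of miR-202-5p was found in no other entry, either over bases 2 to 7 or over bases 2 to 8. A RefSeq hairpin was present for 968 of the 2202 miRNA genes counted here, so other genes with these seeds can be missing.

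Beyond the seed, Mir202 shared little sequence with the let-7 genes. The longest run that miR-202-3p shared with any of those mature sequences was 7 bases, in let-7j and in let-7d-5p. Over the whole hairpin and on both strands, the longest run shared with any of 1004 other RefSeq hairpins was 11 bases, with Mir654, and 0 of them shared 18 bases. The gene counts leave out reads that aligned to several places, which touches genes with close copies. The tables count reads per hairpin, so the 5′ and 3′ arms of Mir202 and of Mir383 were not resolved.

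Both members lie on the minus strand inside a longer gene of the same strand, but at different kinds of site. Mir202 (ENSMUSG00000065502.1) lies in exon 2 of 2 of the long noncoding gene Gm2044 (chr7:139957005-139958039), in an exon of 826 bp. On the opposite strand the position falls in an intron of the noncoding gene Gm16201. Its nearest annotated miRNA gene, mmu-mir-7686, starts after a gap of 66 bp in the same exon and had 0 counts in each library, which allows up to 3 counts, or 1.16 CPM (counts per 1000000 miRNA counts of the library) in replicate 1 and 1.31 in replicate 2. Mir383 (ENSMUSG00000065457.3) lies at chr8:38252133-38252202, in intron 1 of both annotated Sgcz transcripts, an intron of 707667 bp in a gene of 1139211 bp (chr8:37522298-38661508). Its nearest annotated miRNA gene, Mir7666, was 2055672 bp away and had 9 and 7 counts. Neither member had a detected miRNA gene on its strand within 10 kb. That was also the case for 188 of the 339 detected miRNA genes (55.5%), detected meaning at least 10 counts in each library. Of these 339, 127 (37.5%) were intronic like Mir383 and 101 (29.8%) overlapped an exon of a same-strand gene like Mir202.

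**Figure D1:**
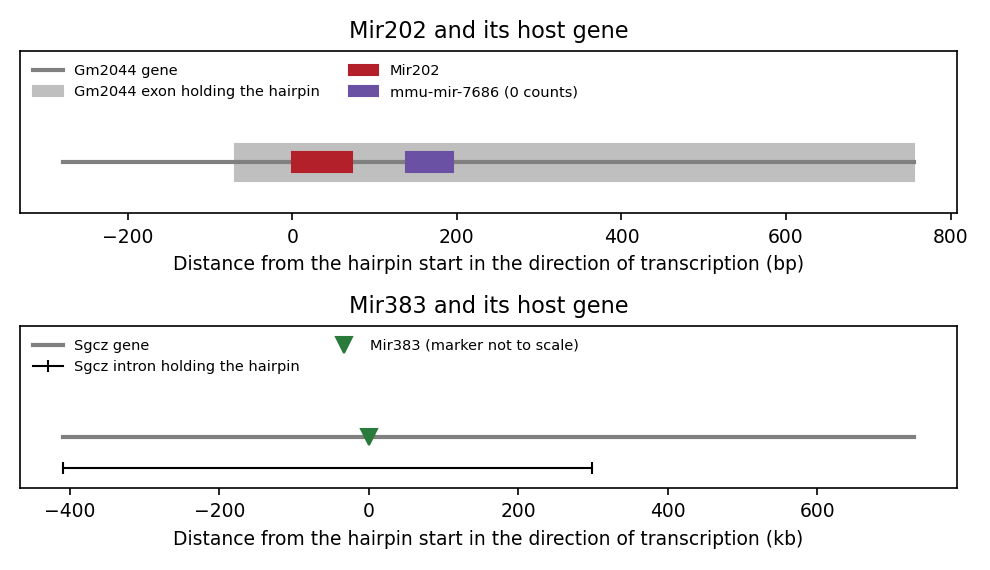
Position of Mir202 in Gm2044 (upper panel, distance in bp) and of Mir383 in Sgcz (lower panel, distance in kb), measured from the hairpin start in the direction of transcription. The Mir202 hairpin and mmu-mir-7686 share exon 2 of Gm2044, while Mir383 lies within the 707667 bp intron 1 of Sgcz.

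Both gonad-associated miRNAs were detected in both adrenal libraries, Mir383 at a moderate level and Mir202 in the lower part of the detected range. Counts on the own strand of a miRNA gene totalled 2590051 in replicate 1 and 2291030 in replicate 2. Mir383 had 572 counts in replicate 1 and 434 in replicate 2. These were 221 CPM (Wilson 95% interval 203 to 239.7) and 189 CPM (172 to 208), a mean of 205 ± 22.2 CPM (SD, n = 2). Mir202 had 61 counts in replicate 1 and 39 in replicate 2. These were 23.6 CPM (18.3 to 30.2) and 17.0 CPM (12.5 to 23.3), a mean of 20.3 ± 4.62 CPM (SD, n = 2). The lower bound of each interval lay above the limit of 3 counts, and the intervals of Mir383 and Mir202 did not overlap in either library. The intervals cover counting error only and take each read as independent. Copies made by PCR are not independent molecules, so the intervals can be too narrow. All counts of both members fell on their own strand, with 0 on the opposite strand, and their counts were equal when strand was ignored. The tissue was measured in bulk, so fewer cells of a type and less RNA per cell cannot be told apart.

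**Figure D2:**
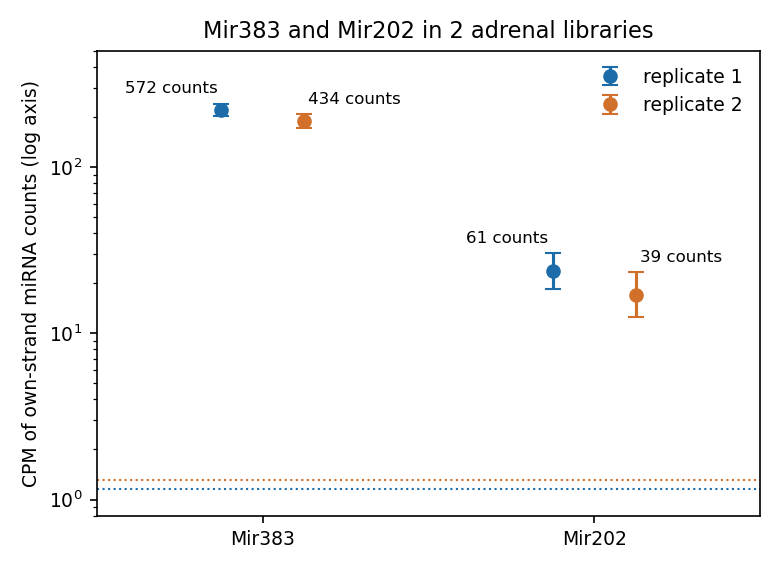
Level of Mir383 and Mir202 in each library, in CPM on a log axis, with Wilson 95% intervals as bars and the raw count beside each point. Dotted lines mark the limit of 3 counts in each library, and all 4 points lie above both lines, from 17.0 CPM for Mir202 in replicate 2 to 221 CPM for Mir383 in replicate 1.

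By rank, Mir383 stood just above the middle of the detected miRNAs and Mir202 in the lower tail. The mean level of Mir383 was exceeded by 150 of the other detected miRNA genes and lay above 188 of them. Its rank in a single library, among all 2202 genes, was 149 in replicate 1 and 148 in replicate 2. The mean level of Mir202 was exceeded by 272 detected genes and lay above 66. It ranked at 260 and 278. The median over the 339 detected genes was 134 CPM, so Mir383 lay above and Mir202 below it in both libraries.

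**Figure D3:**
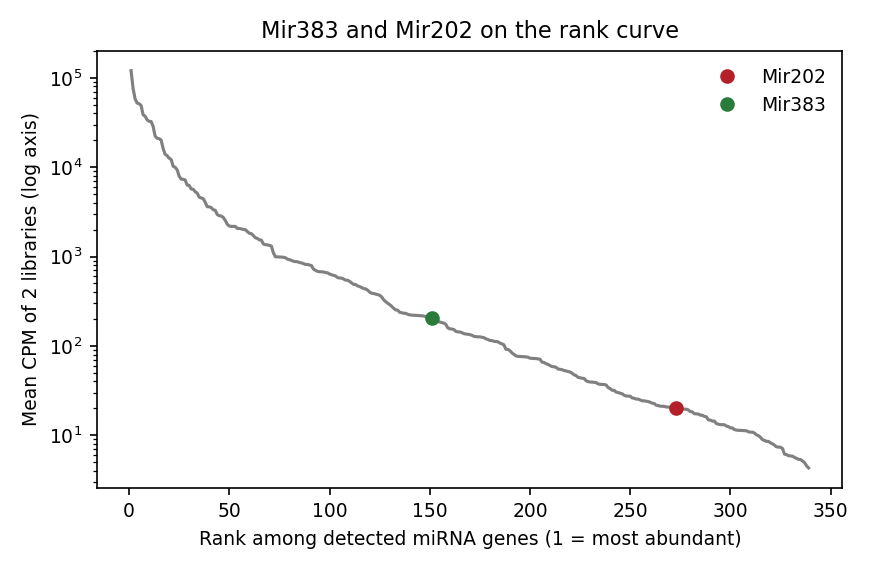
Mean CPM of the 2 libraries (log axis) against rank for the 339 detected miRNA genes, with Mir383 and Mir202 marked. Mir383, at 205 CPM, sits near the middle of the curve, and Mir202, at 20.3 CPM, in its lower tail.

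The genes with the level pattern most like each member were taken as the 5 detected genes at the smallest Euclidean distance between log2(CPM + 1) values over the 2 libraries. For Mir383 these were Mir125b-1, Mir542, Mir421, Mir300 and Mir467d, at distances of 0.0950 to 0.197. Mir125b-1 had 611 and 432 counts against the 572 and 434 of Mir383. For Mir202 they were Mir190b, Mir3547, Gm47277, Mir669l and Mir3076, at distances of 0.0461 to 0.247. Mir190b had 59 and 39 counts and Mir3547 had 61 and 41, at most 2 counts away from the 61 and 39 of Mir202 in either library. Mir125b-1, Mir467d and Mir669l belong to families with similar genes elsewhere in the genome, so their own counts can be too low. The sequences of these genes were not compared here. With 2 libraries this measure compares levels and says little more.

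Mir383 was the more abundant member in both libraries, by close to the same factor. Within replicate 1 there were 9.38 Mir383 counts for each Mir202 count (exact 95% interval 7.19 to 12.4), and within replicate 2 there were 11.1 (8.01 to 15.9). The mean was 10.3 ± 1.24 (SD, n = 2). This ratio needs no library size, and since each read covers a whole short RNA no length correction was applied. The ratio in replicate 2 was 1.19 times that in replicate 1 (95% interval 0.765 to 1.86), which a two-sided Fisher's exact test did not separate from equality (p = 0.459).

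Between the libraries both members had lower values in replicate 2, and neither passed the test. The reads of the libraries were compared by a two-sided exact conditional binomial test, with library sizes scaled by TMM factors and p adjusted by Benjamini-Hochberg over the 367 miRNAs whose counts summed to 20 or more. It compares these libraries and no condition, and counting error is its only spread. The log2 ratio of replicate 2 over replicate 1 was -0.18 for Mir383 (exact 95% interval -0.37 to -0.0014, adjusted p = 0.0718, exact test), which is 1.14-fold more in replicate 1. For Mir202 it was -0.42 (-1.05 to 0.17, adjusted p = 0.213, exact test), which is 1.34-fold more in replicate 1. Of all 367 miRNAs, 62.7% passed, with 32.4% at the higher level in replicate 1 and 30.2% in replicate 2. The median absolute log2 ratio over the 367 was 0.46, and 83 of them had a smaller one than Mir383 and 169 a smaller one than Mir202. The interval of Mir202 is wide because 100 counts carry it, and it includes both equality and a difference of more than 2-fold.

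The call on Mir383 depended on the scaling, while its direction did not. With total counts in place of TMM factors its log2 ratio was -0.22 (adjusted p = 0.0275, exact test), where 33.2% of all tested miRNAs passed as higher in replicate 1. With TMM factors computed over all miRNA genes, an alternative chosen after the data were seen, it was -0.32 (adjusted p = 0.00117, exact test), where 37.9% did. Over its 8 alternatives the adjusted p ran from 0.00117 to 0.131, and Mir202 passed in 0 of its 7, with adjusted p of 0.0882 to 0.362.

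**Figure D4:**
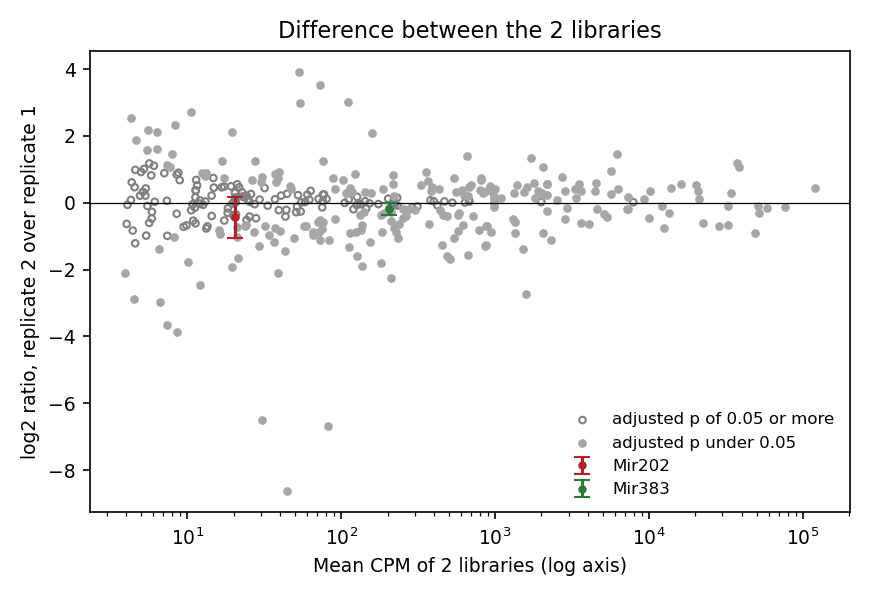
Log2 ratio of replicate 2 over replicate 1 against mean CPM (log axis) for the 367 miRNAs tested, filled where the adjusted p was under 0.05. Mir383 (-0.18) and Mir202 (-0.42) are drawn with exact 95% intervals and lie below 0, within the cloud of the other miRNAs.

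The members were then set beside other gonad-associated miRNAs, 39 genes in 4 roles with the members included. Of these 39, 16 were detected, beside 15.4% of all 2202 genes, and 18 had 0 counts in both libraries. Over all 2202 genes, those with 0 counts in both libraries tied at rank 725 by mean level, so most of the 2202 had none. The list was drawn up with earlier results of these data known. In the role the members belong to, ovarian somatic and gonadal supporting cells, 7 of 7 genes were detected. In mean level Mir383 was second of these 7, after Mir132, and Mir202 sixth, above Mir452. Mir132 and Mir212, a pair induced by cyclic AMP signalling in granulosa and adrenal cells, had 2215 and 833 CPM and 63.7 and 22.7 CPM in replicates 1 and 2. Mir503, of the X-linked Mir322 cluster, had 168 and 104 CPM. Mir224, a TGF-beta-responsive miRNA of granulosa cells, had 69.5 and 73.3 CPM and its neighbour Mir452, in the same host Gabre, 6.95 and 4.36 CPM. In this role 3 of 7 (Mir132, Mir212 and Mir503) passed as higher in replicate 1, against 32.4% of all tested miRNAs. As higher in replicate 2, 0 of 7 passed, against 30.2%. The other 4, both members among them, did not pass, where 62.7% of all tested miRNAs passed in either direction. The median log2 ratio of the 7 was -0.60, beside 0.02 over all 367.

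Genes of the other gonadal roles ranged from none to levels above those of the members. The X-linked testis cluster beside Fmr1, expressed in male germ cells, had 0 of 16 genes detected, beside 15.4% of all 2202 genes. Of the 16, 14 had 0 counts in both libraries, as did most of the 2202 genes. The summed counts of the cluster were 2 in replicate 1 and 6 in replicate 2, against 633 and 473 for the members together. Reads that aligned to several places are left out, so cluster genes with close copies can have counts that are too low. Of 5 genes shared by germ cells and multiciliated epithelium, Mir34c had 2553 and 3174 CPM, Mir34b 75.7 and 76.4 CPM and Mir449a 14.3 and 19.2 CPM, while Mir449b and Mir449c had 0 counts in both libraries. Mir34c is also widely expressed outside the gonads, and it exceeded Mir383 in both libraries.

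Among the germ line and pluripotent genes, Mir302a, Mir302b, Mir302c, Mir302d and Mir294 were higher in replicate 2. Of 11 genes, 6 were detected, and 5 of the 7 tested passed as higher in replicate 2 and 0 as higher in replicate 1, against 30.2% of all tested miRNAs. Their summed level was 75.3 CPM in replicate 1 and 389 CPM in replicate 2. Mir302a had 11.6 and 133 CPM, Mir302b 6.56 and 99.5 CPM and Mir302d 12.4 and 96.0 CPM, while Mir367 of the same cluster had 0 counts in both libraries. Of the Mir290a cluster, Mir294 had 8.88 and 16.1 CPM and passed (adjusted p = 0.0321, exact test), while Mir292 had 17.0 and 9.60 CPM and Mir293 13.1 and 13.1 CPM and did not pass. Mir202 lay above these 3 in both libraries, at 23.6 and 17.0 CPM. Over all 39 genes 17 were tested, of which 3 passed as higher in replicate 1 and 6 as higher in replicate 2. Over the 367 miRNAs tested these shares were 32.4% and 30.2%. The other 8 of the 17 did not pass, where 62.7% of the 367 passed in either direction. The median log2 ratio of the 17 was 0.05.

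**Figure D5:**
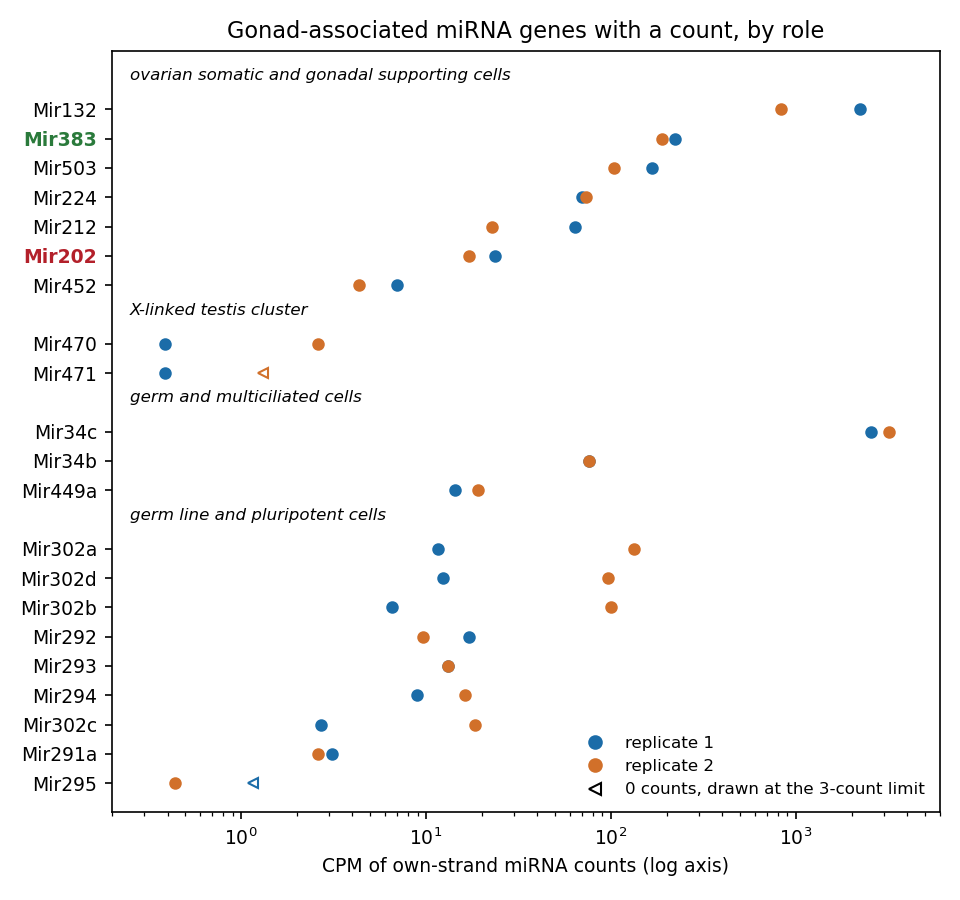
CPM (log axis) in each library for the gonad-associated miRNA genes with at least 1 count, grouped by role, with Mir202 and Mir383 in bold. A count of 0 is drawn as an open triangle at the limit of 3 counts. The members' points from both libraries lie close together, while those of Mir302a, Mir302b and Mir302d are far apart.

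Markers of cell types outside the gonads were present, some from tissues that a dissection could carry, and several differed between the libraries. Their part in the levels of Mir202 and Mir383 was not tested. All 4 endocrine and neuroendocrine genes were detected, summing to 66107 CPM in replicate 1 and 56588 CPM in replicate 2, mostly Mir375 of endocrine cells. The adrenal gland is itself an endocrine organ, so these genes need not mark another tissue. In this list 4 of 4 passed as higher in replicate 1, against 32.4% of all tested miRNAs. Epithelial miRNAs, 3 of 7 detected beside 15.4% of all 2202 genes, summed to 1192 and 1871 CPM. Most of this was Mir203, at 1147 and 1618 CPM. In the epithelial list 4 of the 5 tested passed as higher in replicate 2, against 30.2% of all tested miRNAs. Striated muscle miRNAs summed to 597 and 81.2 CPM, with a median log2 ratio of -6.60. All 4 of 4 passed as higher in replicate 1, against the same 32.4%. Of these, Mir206 was the 1 with at least 10 counts in each library, at 285 and 79.4 CPM, with a log2 ratio of -1.80. Mir206 gave 182 of the 186 striated muscle counts in replicate 2, so the median rests on genes with few counts there. The liver miRNA Mir122 had 622 and 702 CPM and passed as higher in replicate 2. Kidney miRNAs, 2 of 3 detected, summed to 56.8 and 36.2 CPM, led by Mir194-2 at 22.8 and 25.8 CPM. Of the 2 tested, 1 passed as higher in replicate 1. Mir383 and Mir202 together held 244 and 206 CPM. The genes listed here for ovarian cells are also expressed in other tissues, so whether the samples held gonadal cells was not tested.

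By seed, Mir202 was a very small part of a very large family. The 15 genes with a RefSeq mature sequence that has GAGGUA at bases 2 to 7 were Mir202 and mostly let-7 genes. They held 28.4% of the counts of replicate 1 and 28.7% of those of replicate 2. Mir202 gave 83.0 per 1000000 counts of these genes in replicate 1 and 59.4 in replicate 2. These are counts of whole hairpins, and reads of let-7 sequences encoded at several loci (let-7a, let-7c and let-7f) can be missing because they align to several places. The values are therefore shares of the gene counts and not of the mature sequences. Genes without a RefSeq entry are also left out. The 15 genes held 734930 counts in replicate 1, below the 735288 of the 12 genes named let-7 or Mir98.

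Over the 7 bases 2 to 8, Mir202 shared its 3′ seed with Mir7j alone among genes with a RefSeq entry. The 2 genes had levels of the same order. Mir7j had 111 counts in replicate 1 and 82 in replicate 2, 42.9 and 35.8 CPM. Mir202 gave 35.5% (Wilson 95% interval 28.7 to 42.9) and 32.2% (24.6 to 41.0) of the counts of this pair. The log2 ratio of Mir7j between the libraries was -0.22 (-0.65 to 0.20, adjusted p = 0.393, exact test), beside -0.42 for Mir202, and neither passed. Counting from the 5′ end, let-7j differs from let-7i-5p over the 22 bases compared by a single substitution, G8U, in which let-7i-5p has the first base. Mir7j counts were 0.126% and 0.115% of the counts of Mirlet7i in replicates 1 and 2. Whether reads of Mirlet7i with a changed base entered the Mir7j counts was not tested, so the share of Mir202 in the pair can be too low. The Mir202 counts also include any reads of its 5′ arm, which lacks this seed. As a share by seed, that of Mir202 can therefore also be too high.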

How the data were processed

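The authors deposited raw read counts for each miRNA gene, in columns for the gene's own strand, for the other strand and for either strand (which column is which was read from the values), on mm10 with GENCODE M21 per the deposited notes. That build is of C57BL/6J. No aligner, counter or trimming step is named in the labels or notes. All 2202 identifiers matched GENCODE M21. The first 4 rows name no gene and were left out: of 9807567 and 6993665 reads, 40.6% and 29.8% were unmapped, 24.0% and 28.0% aligned to several places and 8.94% and 9.44% fell in no gene.

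CPM are own-strand counts per 1000000. Library sizes were scaled with TMM factors (edgeR 4.0.16) over the 367 genes tested, 1.01 and 0.987, with a prior count of 0.5 in log2 ratios. With 1 group, edgeR's quasi-likelihood test has no comparison to make, so an exact conditional binomial test was used (SciPy 1.17.1). It was checked on data simulated with counting error only, which leaves out variation between samples. DESeq2 1.42.0 gave other size factors. An adjusted p under 0.05 was called.

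Genes named were the members, detected genes of fixed lists, the 5 nearest in level, neighbours, hosts and genes sharing a seed or 18 hairpin bases, beside a few chosen after their values were seen (Mir302c, Mir367, Mir449b, Mir449c and Mir654, and genes drawn with few counts). The members and lists were chosen with earlier results of these data known.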

Additional observations from a re-analysis of the deposited data

How the results depend on the processing

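No paired analysis was possible because there is 1 group. Of 45 alternative values, 36 kept their direction and side of the threshold, stayed within the replicate spread or, for counts of genes, stayed within 1.5 times, and none reversed. Some of the 36 could not have moved, so the tally is no measure of stability. With 2 libraries, a level or ratio without 1 of them always lies within the replicate spread. The ratio with strand ignored used the same counts. A prior count of 5 changed the log2 ratios but not the adjusted p or the intervals. The Mir383 log2 ratio passed at -0.22 with total counts, -0.21 with strand ignored, and, in alternatives chosen after the data were seen, -0.32 with TMM factors and -0.28 with DESeq2 size factors over all miRNA genes. TMM factors over all miRNA genes also moved the median log2 ratio of the tested miRNAs from 0.02 to -0.12. They left 85 of 224 calls (37.9%) higher in replicate 2, against 48.3% of 230. The level of Mir202 was 44.9 CPM without the 10 most abundant miRNAs in the total and 5.90 per 1000000 of all reads, and that of Mir383 455 and 60.2, by construction of the total. With strand ignored Mir383 was at 237 CPM, since that total is smaller. Leaving out a replicate gave 17.0 to 23.6 CPM for Mir202, 189 to 221 CPM for Mir383, 9.38 to 11.1 for their ratio and 362 to 366 detected miRNAs. Mir202 was not tested at a summed count of at least 200. Its 100 counts leave a wide interval.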
